A study of Mus musculus with 24 samples.

Results

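The ventral root carries the efferent nerve fibres (EN) of the spinal cord, and the comparison described here is between EN of mice aged 3 weeks (3 W) and EN of newborn mice (P0). Its members are the 6 arrays labelled as EN at 3 W or at P0, 3 for each age, of the 24 arrays in the series. The other 18 arrays hold EN at 1 W and 5 W and afferent nerve fibres (AN, the dorsal root) at the same 4 ages. All mice were C57BL/6, with no genetic change and no treatment named in the labels, so age is the difference that the labels give between the 2 groups. Lumbar root fibres of each group were collected together. The methods speak of 3 independent experiments per group without saying which animals each array holds, so p-values measure only the spread between these samples, which may be in part technical.

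In a peripheral root, axons of motor neurons run through a sheath made almost wholly by Schwann cells, and their cell bodies stay in the spinal cord. Around birth, immature Schwann cells sort single large axons, leave the cell cycle and switch from adhesion and growth-associated genes to the proteins and lipids of compact myelin. Myelin is rich in cholesterol and galactolipids, so its construction draws on sterol and very long chain fatty acid synthesis. Nodes of Ranvier, where sodium channels cluster between myelin segments, and the Schwann cell basal lamina are built over the same weeks.

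The values are log2 signals that the authors quantile-normalized, so every array has the same median, 6.311. Between 57.42% and 64.16% of spots were well above background on the P0 arrays and between 61.85% and 64.59% on the 3 W arrays, with 0 saturated gene spots, while the unscaled median signal was 121.94 to 169.17 at P0 and 51.44 to 58.54 at 3 W. Correlations over probes were 0.9846 to 0.9871 within P0, 0.9932 to 0.9942 within 3 W and 0.8867 to 0.9086 between the ages. The 2 ages share no slide: P0 replicate 1 was on slide 1, P0 replicates 2 and 3 were on slide 3, and the 3 arrays of 3 W were on slide 4. Age and slide therefore cannot be told apart within these 6 arrays. Values from a fit of all 24 arrays with slide as a fixed block are given where list counts or reported gene calls changed.

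The tissue label was checked against markers of the cell types that a root and its surroundings could hold. All 10 Schwann cell markers were above background on all 6 arrays, with a summed linear signal of 303404 to 329887 at P0 and 526648 to 560418 at 3 W. Markers of sensory neurons, whose cell bodies lie in the dorsal root ganglion and not in the ventral root, were also present at P0. All 9 sensory markers tested were above background on the P0 arrays, with a summed signal of 16989 to 26124, against 821 to 1377 at 3 W. Skeletal muscle markers summed to 105373, 297352 and 110178 on P0 replicates 1, 2 and 3, and to 31291 to 69357 at 3 W.

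The genes behind the sensory signal are well-known genes of ganglion neurons. *Scn10a*, the nociceptor sodium channel, read 12.09, 12.36 and 12.53 at P0 and 7.39, 6.57 and 7.61 at 3 W. *Avil*, the sensory neuron protein advillin, read 12.37, 12.83 and 13.18 and then 8.13, 7.94 and 8.63. The 2 ages did not overlap for either gene. Avil fell by 3.69 in place of 4.56 on the log2 scale with slide as a fixed block and was not called (limma adjusted p = 0.0732). All 3 P0 arrays carried this signal, so no comparison without it could be made, and its part in the falls of the neuronal lists was not tested.

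**Figure D1:**
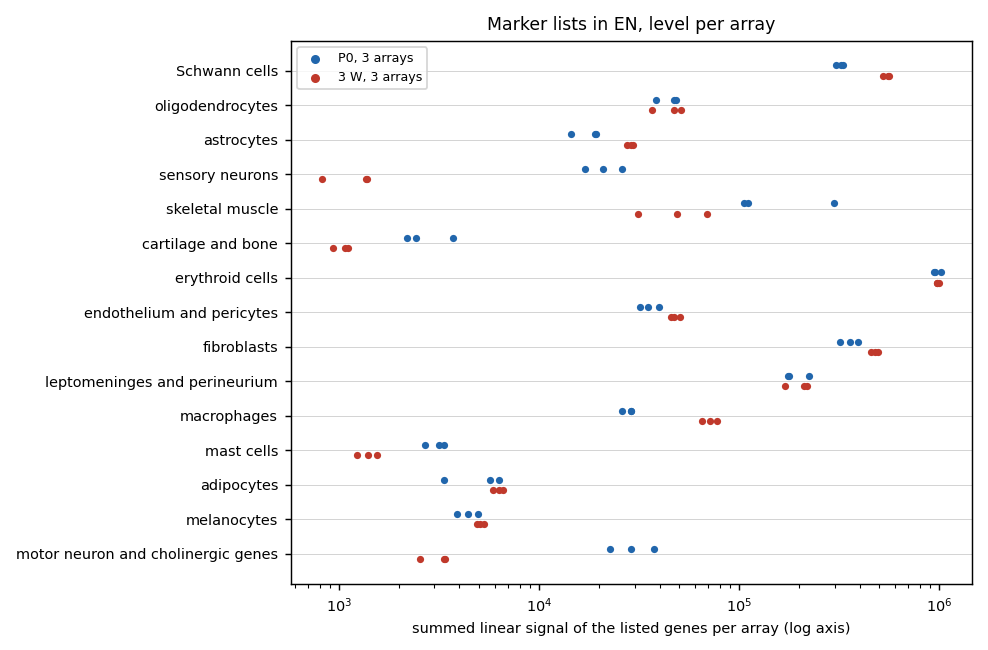
Summed linear signal of 14 cell type marker lists and of the motor neuron list on each EN array, with P0 in blue and 3 W in red, 3 arrays each, on a log axis. Sensory neuron, skeletal muscle, mast cell, cartilage and bone, and motor neuron sums were lower on every 3 W array than on every P0 array. Macrophage, Schwann cell, astrocyte, endothelium and pericyte, and fibroblast sums were higher on every 3 W array. The erythroid, oligodendrocyte, leptomeninges and perineurium, adipocyte and melanocyte ranges overlapped.

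A gene is called here when limma's adjusted p was below 0.05 and the log2 difference exceeded 1, that is a change of more than 2-fold. Of 26759 genes on the array, 17859 passed the filter, which asked for a signal above background throughout P0 or throughout 3 W. Of these, 3041 genes (17.0%) were higher at 3 W and 2631 genes (14.7%) were lower. Counted by probe, 5838 of 34533 tested probes (16.9%) were higher and 5232 (15.2%) were lower. The median difference over tested genes was 0.07 on the log2 scale, with the 10th percentile at -1.4 and the 90th at 1.46. With slide as a fixed block the counts of genes were 2507 higher and 1899 lower. In bulk tissue a fall in a cell type's genes can be fewer cells or less RNA per cell, and these cannot be told apart.

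Many genes passed the filter through 1 age alone. A total of 1466 genes were tested only because they were above background at 3 W, of which 850 were called higher, and 685 only because of P0, of which 586 were called lower. The filter tilts these genes towards such calls by construction, so the calls give no support of their own. Among the 15708 genes above background on all 6 arrays, 2191 were called higher and 2045 lower. For a gene below background at an entire age, a bound is given in place of a fold: the brighter age's mean against, on each array of the other age, the higher of the gene's own signal and the dimmest signal called well above background.

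**Figure D2:**
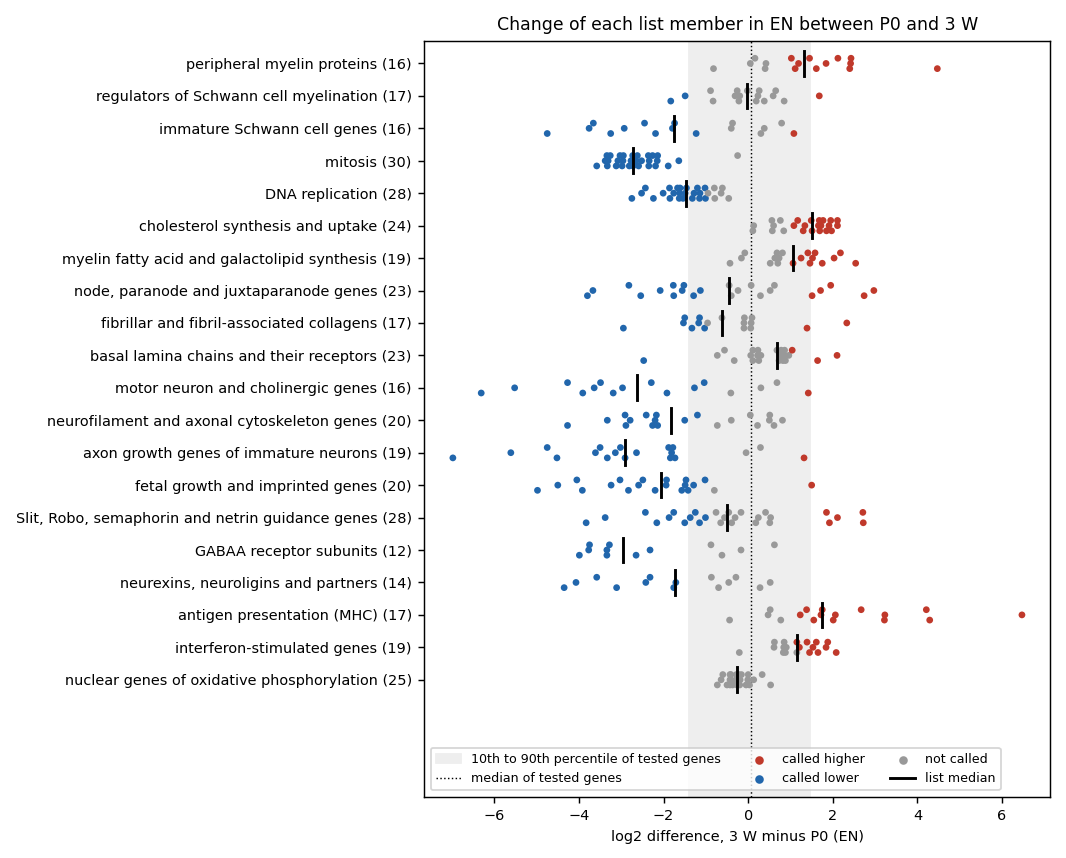
Log2 difference between 3 W and P0 in EN for each tested member of 20 gene lists, with called genes in red or blue, other genes in grey and the list median as a bar. The number of tested members is in brackets and the shaded band is the 10th to 90th percentile of all tested genes. The mitosis members lay between -3.58 and -0.25, the oxidative phosphorylation members stayed between -0.73 and 0.53, and the cholesterol members lay between 0.11 and 2.11.

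Of 16 peripheral myelin proteins, 11 were called higher at 3 W and 0 lower by limma, also at an unadjusted p, with a median difference of 1.32 (0.07 over all tested genes). All 16 were above background on all 6 arrays, and 1 was called lower without P0 replicate 1. With slide as a fixed block 10 were called higher. *Drp2*, which links the Schwann cell cytoskeleton to the basal lamina at sites where myelin is apposed to it, read 11.71, 10.63 and 10.92 at P0 and 15.56, 15.45 and 15.64 at 3 W. The ages were far apart, with a difference of 4.47 ± 0.27 (SE, n = 3 and 3), or 22.1-fold (limma adjusted p = 4.23e-05). *Mbp*, myelin basic protein of the compacted membrane, rose from 14.39, 14.04 and 14.34 to 16.65, 16.62 and 16.77, which is 5.36-fold (limma adjusted p = 2.64e-05). *Gjb1*, the connexin of myelin's own gap junctions, rose from 13.28, 12.7 and 12.9 to 15.35, 15.42 and 15.4, and no 3 W array lay near a P0 array.

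Not all myelin proteins rose past the fold rule. *Pmp22*, a tetraspan myelin protein, differed by 0.4 and *Prx*, periaxin, by 0.05, and neither was called. Among the rises were also *Ncmap* (2.4), *Cd9* (2.12), *Pmp2* (1.84) and *Cldn19* (1.61), the last the claudin of Schwann cell tight junctions.

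The transcription factors and receptors that direct myelination moved little as a group. Of 17 tested regulators 1 was called higher and 2 lower, no larger a share than among all tested genes (17.0% and 14.7%). Their median was -0.02, and with slide as a fixed block 3 were called lower. *Egr2*, the master regulator of the myelinating state, read 15.42, 15.26 and 15.17 at P0 and 16, 16.14 and 16.24 at 3 W, so the ages were separate but the difference of 0.85 ± 0.12 (limma adjusted p = 0.000911) was under 2-fold. Its corepressor *Nab2* rose by 1.68. *Pou3f1*, a factor of the promyelinating stage that precedes Egr2, read 15.02, 14.31 and 14.66 and then 12.67, 12.84 and 13.0, a 3.55-fold fall (limma adjusted p = 0.000346). Its relative *Pou3f2* fell by 1.49.

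Most genes of lipid supply were called higher. Of 24 genes of cholesterol synthesis and uptake, 17 were called higher and 0 lower by limma, also at an unadjusted p, with a median of 1.5 and all 24 members above 0. *Hmgcs1*, which makes the HMG-CoA at the head of the pathway, read 16.34, 15.82 and 15.88 at P0 and 18.19, 18.12 and 18.06 at 3 W. That is 4.32-fold higher (limma adjusted p = 7.91e-05), without overlap. *Srebf2*, the transcription factor of the pathway, differed by 0.13 and was not called.

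Of 19 genes of fatty acid and galactolipid synthesis, 10 were called higher and 0 lower by limma, also at an unadjusted p. The median was 1.06, with a range from -0.43 to 2.54, and with slide as a fixed block 9 were called higher. *Ugt8a*, the enzyme that makes galactosylceramide, read 13.29, 12.47 and 13.18 at P0 and 15.5, 15.46 and 15.6 at 3 W, a rise of 5.82-fold (limma adjusted p = 0.000148). *Cers2*, the ceramide synthase for very long acyl chains, rose by 2.18, *Scd1*, a desaturase, by 2.03 and *Fa2h*, which hydroxylates the fatty acids of myelin galactolipids, by 1.75. *Fasn*, fatty acid synthase, was just past the fold rule at 1.06 and fell just short of it, at 0.82, with slide as a fixed block.

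Immature Schwann cell genes went the other way. Of 16, 10 were called lower and 1 higher, with a median of -1.76. *Ncam1*, a cell adhesion molecule that myelinating Schwann cells switch off, read 13.65, 13.93 and 13.79 at P0 and 10.9, 10.87 and 10.81 at 3 W. The difference was -2.93 ± 0.11, a 7.62-fold fall (limma adjusted p = 1.18e-05), with the ages wide apart. *Fabp7*, a lipid carrier of Schwann cell precursors, fell 13.6-fold, and the transcription factors *Pax3* and *Sox2* fell by 3.66 and 2.45 on the log2 scale. *Gap43*, which growing axons also hold, fell 26.9-fold, from 12.83, 13.37 and 13.46 to 8.35, 8.08 and 8.97. The slide-blocked fit called 12 members lower.

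*Ngfr*, the low-affinity neurotrophin receptor and a common marker of immature cells, read 12.71, 13.43 and 13.5 at P0 and 12.97, 12.74 and 12.72 at 3 W. The ages overlapped and the difference was -0.4 ± 0.22 (limma adjusted p = 0.157), while the fit with slide as a fixed block gave -1.89 (limma adjusted p = 0.0131). The 1 riser was *Cdh19*, a cadherin of the Schwann cell lineage, at 1.08, which was 0.97 without P0 replicate 2 and then no longer called.

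The cell cycle genes fell most evenly. Of 30 genes of mitosis, 29 were called lower and 0 higher by limma, also at an unadjusted p, with a median of -2.72. Of the 29 above background on all 6 arrays, 28 were called lower. With slide as a fixed block 29 of the 30 were also called lower. *Ccnb1*, the cyclin of mitotic entry, read 11.62, 11.81 and 11.44 at P0 and 7.82, 8.24 and 8.07 at 3 W, which is 12-fold lower (limma adjusted p = 1.61e-05). *Aurkb*, a kinase of chromosome segregation, fell 10.4-fold and *Mki67*, the proliferation antigen, 6.57-fold, from 13.55, 14.05 and 13.84 to 10.99, 11.32 and 10.97. No P0 array overlapped a 3 W array for these genes. The 1 member not called was *Anln*, anillin of the contractile ring, which is also expressed by myelinating cells, at -0.25. The summed signal of the list was 104196 to 120670 at P0 and 18124 to 19990 at 3 W.

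Of 28 DNA replication genes, 22 were called lower and 0 higher by limma, also at an unadjusted p, with a median of -1.48, and 25 were called lower with slide as a fixed block. *Chaf1b*, a subunit of the chromatin assembly factor, fell 6.74-fold and *Uhrf1*, which maintains DNA methylation, 5.75-fold. *Mcm2*, of the replicative helicase, read 10.63, 10.78 and 10.76 and then 8.81, 8.63 and 8.71, a 4.02-fold fall (limma adjusted p = 2.38e-05). Its partners in the helicase, *Mcm5*, *Mcm3* and *Mcm6*, fell by 2.24, 1.85 and 1.67. *Pcna*, the sliding clamp, differed by -0.8 and was not called.

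Because the mitosis genes fell nearly as a block, their promoters were read for the short motifs known from genes of mitosis. The motif CCAAT is bound by NF-Y, and the cell cycle homology region is written here as TTTGAA or TTCGAA. Both were searched on both strands in RefSeq windows of 300 bases (250 before and 50 after the start, GRCm38.p6), and a match of one motif can share at most 1 letter with a match of the other. CCAAT stood in 22 of 28 promoters of 26 mitosis genes (78.6%), against 37.4% of all 32841 promoters. It stood at least 2 times in 15 (53.6%), against 11.7% of all. TTTGAA or TTCGAA stood in 23 (82.1%), against 19.2%, and both motifs in 20 (71.4%), against 7.52%.

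In the DNA replication list, CCAAT stood in 18 of 31 promoters (58.1%) and TTTGAA or TTCGAA in 7 (22.6%). A match is a description of these letters and shows no binding. The 250 bases before the start are given for *Ccnb1* (chr13:100786487-100786736, minus strand) and *Bub1*, a spindle checkpoint kinase (chr2:127831860-127832109, minus strand). They are examples from the 3 mitosis genes with the largest falls, of which Aurkb had no promoter entry. Each holds 2 CCAAT matches, which are in capitals, 1 of those of Bub1 being its reverse complement ATTGG. Neither stretch of 250 bases holds a match of the cell cycle homology region. The window of 300 bases holds 1 such match for Bub1 and 0 for Ccnb1. Bub1 was chosen after its values were seen; its level fell by 3.34.
Ccnb1: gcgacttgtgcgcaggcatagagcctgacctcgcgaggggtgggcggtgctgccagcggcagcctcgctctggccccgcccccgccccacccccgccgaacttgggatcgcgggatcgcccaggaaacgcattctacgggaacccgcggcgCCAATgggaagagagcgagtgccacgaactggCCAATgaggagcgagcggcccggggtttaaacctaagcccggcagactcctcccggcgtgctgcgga
Bub1: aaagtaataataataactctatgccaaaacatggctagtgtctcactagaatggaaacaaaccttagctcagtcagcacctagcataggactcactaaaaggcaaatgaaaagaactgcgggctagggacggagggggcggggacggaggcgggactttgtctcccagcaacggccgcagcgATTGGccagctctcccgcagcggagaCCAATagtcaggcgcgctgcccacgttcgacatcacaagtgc

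Fetal growth and imprinted genes were lower as well. Of 20, 18 were called lower and 1 higher, with a median of -2.07, and with slide as a fixed block 16 were called lower. Of the 18 above background on all 6 arrays, 16 were called lower. *H19*, an imprinted noncoding RNA, read 17.45, 17.9 and 17.53 at P0 and 12.92, 13.58 and 12.89 at 3 W, a 22.6-fold fall (limma adjusted p = 2.38e-05). Its neighbour *Igf2*, a fetal growth factor, fell 9.43-fold and *Cdkn1c*, an imprinted cell cycle inhibitor, 16.6-fold. *Lin28b*, which blocks maturation of the let-7 microRNAs, read 7.94, 7.79 and 7.85 at P0, was below background at 3 W and was at least 7.9-fold lower. The 1 riser was *Dcn*, the matrix proteoglycan decorin, at 1.5. *Lin28a* differed by -0.8, and by 0.30 with slide as a fixed block.

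Genes of motor neurons, whose axons fill the ventral root, were mostly lower at 3 W. Of 16 tested, 12 were called lower and 1 higher, with a median of -2.63, and with slide as a fixed block 6 were called lower. Of the 12 members above background on all 6 arrays, 8 were called lower. *Isl2*, a homeodomain factor of motor neurons that sensory neurons also express, read 11.27, 11.63 and 11.94 at P0 and 6.06, 5.6 and 6.6 at 3 W, a 46.0-fold fall (limma adjusted p = 2.55e-05). Its relative *Isl1*, likewise shared with sensory neurons, was below background at 3 W and at least 18.1-fold lower. The summed signal of the list was 22636 to 37348 at P0 and 2543 to 3369 at 3 W, and sensory neuron markers fell over the same arrays (16989 to 26124 and 821 to 1377). The part of these other cells in the result was not tested.

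*Chat*, the enzyme that makes acetylcholine and the defining motor neuron marker, went against the rest of its list. It read 7.69, 7.66 and 7.1 at P0 and 9.05, 8.82 and 8.85 at 3 W, all 3 W arrays being higher, with a rise of 2.68-fold (limma adjusted p = 0.000712). With slide as a fixed block the rise was 0.79 on the log2 scale (limma adjusted p = 0.0693). *Slc18a3*, the vesicular acetylcholine transporter, was called lower at -1.04, with 7.79, 8.78 and 7.48 against 7.47, 6.81 and 6.64, and was -0.98 with slide as a fixed block (limma adjusted p = 0.221).

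Of the 9 tested sensory neuron markers 7 were called lower, with a median of -4.07. Of the 6 above background on all 6 arrays 4 were called lower, and the remaining 3 members passed the filter through P0, where they were high. *Scn10a* fell 35.1-fold (limma adjusted p = 3.02e-05) and *Prdm12*, a transcription factor of nociceptors, fell by 5.02 on the log2 scale, with 2 of its 3 arrays of 3 W above background. With slide as a fixed block 1 of the 9 was called. Scn10a was then -3.81 (limma adjusted p = 0.0857) and Prdm12 -2.61 (limma adjusted p = 0.272). That fit also used the AN arrays, where Scn10a had an SD of 2.87 at 3 W, against 0.22 at P0 and 0.55 at 3 W in EN. What cost these genes their calls was not tested. Slide 3 also held 1 EN array of 5 W, and on that slide alone Scn10a was 6.12 lower on the 5 W array than on the P0 arrays by log2 difference, a value from 1 array with no test.

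Axon growth genes of immature neurons were lower in 16 of 19 cases and higher in 1, with a median of -2.91. Of the 17 above background on all 6 arrays, 14 were called lower. With slide as a fixed block 12 were called lower. *Crmp1*, a semaphorin signalling protein of growth cones, read 11.98, 12.39 and 12.35 at P0 and 6.62, 6.36 and 6.9 at 3 W. This was a 48.9-fold fall (limma adjusted p = 9.92e-06), without overlap. *Dcx*, the microtubule protein doublecortin of young neurons, read 9.25, 9.62 and 9.53 at P0, was below background at 3 W and was at least 24.1-fold lower. *Stmn1*, a microtubule regulator, rose instead by 1.32, from 15.5, 15.68 and 15.68 to 16.92, 16.93 and 16.96.

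Of 20 neurofilament and axonal cytoskeleton genes, 12 were called lower and 0 higher by limma, also at an unadjusted p, with a median of -1.82. With slide as a fixed block 2 were called lower and 1 higher. *Prph*, peripherin of peripheral neurons, fell 19.3-fold and *Stmn2*, a growth cone protein, 10-fold. In the fit with slide as a fixed block these were -3.78 (limma adjusted p = 0.0612) and -2.38 (limma adjusted p = 0.163), neither called. *Nefl*, the light neurofilament chain, read 14.58, 15.11 and 15.59 and then 13.06, 12.61 and 12.83, a fall of 2.26 on the log2 scale, which was -1.19 with slide as a fixed block (limma adjusted p = 0.543). The axonal kinesins *Kif5a* and *Kif1a* differed by 0.51 and 0.5 and were not called. These lists fell on the same arrays as the sensory neuron and muscle markers, whose part was not tested.

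Receptor and synaptic adhesion genes were read on the same arrays, on which the summed sensory neuron markers were 16989 to 26124 at P0 and 821 to 1377 at 3 W. Of 16 GABAA receptor subunits, 12 were tested, 8 of these were called lower and 0 higher by limma, also at an unadjusted p, with a median of -2.96, and 4 were called lower with slide as a fixed block. Just 5 subunits were above background on all 6 arrays, of which 2 were called lower. The other calls came through the P0 arrays, where these subunits were high, so the count of 8 gives no support of its own. *Gabrb2* read 8.33, 8.43 and 8.23 at P0 and 5.7, 5.43 and 5.9 at 3 W, a 6.28-fold fall (limma adjusted p = 2.98e-05). Some subunits could only be bounded, at least 5.86-fold lower for *Gabrg1* and 5.35-fold for *Gabrg3*. *Gabra4* fell by 3.28, or by 0.84 with slide as a fixed block (limma adjusted p = 0.487). *Gabra5* differed by -0.62 and was not called, and was -1.06 with slide as a fixed block (limma adjusted p = 0.00458). These values are of its brightest probe, and of its 2 tested probes 1 was called lower.

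Of 14 neurexins, neuroligins and partners, 8 were called lower and 0 higher by limma, also at an unadjusted p, with a median of -1.74, and 5 were called lower with slide as a fixed block. Of the 12 above background on all 6 arrays, 6 were called lower. *Nlgn1*, a postsynaptic partner, fell by 1.76. *Cbln2*, which bridges neurexins to receptors, read 8.37, 9.69 and 9.46 and then 4.38, 6.7 and 4.23, with 1 of 3 arrays of 3 W above background. The neuropeptide gene *Npy* read 8.49, 8.23 and 8.07 at P0 and was at least 10.5-fold lower at 3 W. *Unc13c*, a vesicle priming protein, differed by -0.95, just under the fold rule, and was past it without P0 replicate 1 (-1.11) or without 3 W replicate 1 (-1.10). That is its brightest probe, and 1 of its 2 tested probes was called lower.

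Genes of the node of Ranvier and its flanks moved in both directions. Of 23 tested, 5 were called higher, a share near the 17.0% of all tested genes, and 11 lower, against 14.7% of all, with a median of -0.45. *Nfasc*, neurofascin of glial paranodes and axonal nodes, read 12.37, 11.52 and 11.7 at P0 and 14.53, 14.6 and 14.69 at 3 W, a 6.69-fold rise (limma adjusted p = 0.000113). *Cadm3*, an internodal adhesion protein, rose 7.83-fold and its Schwann cell partner *Cadm4* by 1.95 (0.92 and not called with slide as a fixed block), and *Gldn*, the gliomedin that Schwann cell microvilli release, rose by 1.71. *Cntnap2*, an axonal protein of juxtaparanodes, read 9.1, 9.29 and 9.5 and then 5.45, 5.19 and 5.86, a fall of 3.80 without overlap, which was -2.63 with slide as a fixed block (limma adjusted p = 0.0946). *Kcna1*, the juxtaparanodal potassium channel, rose by 1.51. With that block 5 members were called lower and 4 higher.

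Of 28 guidance genes tested, 5 were called higher, a share near the 17.0% of all tested genes, and 11 lower, against 14.7% of all, with a median of -0.51. Of the 26 above background on all 6 arrays, 9 were called lower. *Slit2*, a secreted repellent and branching cue, read 10.41, 10.05 and 10.41 at P0 and 13.08, 12.86 and 13.05 at 3 W. Every 3 W array was above every P0 array, with a difference of 2.71 ± 0.14, or 6.53-fold (limma adjusted p = 2.45e-05). *Sema5a*, a transmembrane semaphorin, rose by 2.72. The Slit receptor *Robo2* read 8.83, 8.91 and 8.89 and then 5.16, 5.08 and 4.89, a 14.2-fold fall, with 2 of the 3 arrays of 3 W above background. *Slit1* fell by 2.16 and *Sema4f*, another transmembrane semaphorin, by 3.38, and with slide as a fixed block these were -1.46 and -2.93 (limma adjusted p = 0.193 and 0.0605). That fit called 5 members higher and 6 lower.

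Of 17 fibrillar and fibril-associated collagens 7 were called lower and 2 higher, against 14.7% and 17.0% of all tested genes, with a median of -0.62. *Col5a3*, a chain of type V collagen that Schwann cells make, rose from 12.86, 12.99 and 12.94 to 15.15, 15.29 and 15.33, which is 5.01-fold (limma adjusted p = 1.64e-05). The other riser was *Col14a1*, at 1.39. *Col2a1*, the main collagen of cartilage, fell by 2.95 on the log2 scale, which was -1.14 with slide as a fixed block, and *Col1a1* read 16.63, 16.85 and 16.83 and then 16.67, 16.56 and 16.77, with overlap and no call. Cartilage and bone markers were lower on the same arrays, with summed signals of 2197 to 3730 at P0 and 939 to 1114 at 3 W. Of 7 tested, 3 were called lower, of which 1 was above background on all 6 arrays, with a median of -1.7. Their part was not tested.

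Of 23 basal lamina chains and receptors 3 were called higher and 1 lower, with a median of 0.68, no larger a share than among all tested genes (17.0% and 14.7%). *Lama5*, a laminin chain, rose from 11.02, 10.61 and 10.26 to 12.75, 12.65 and 12.8 (2.1 on the log2 scale). *Itgb4*, the integrin chain of mature Schwann cells and perineurium, rose by 1.64, and *Lamb2* by 1.04 (0.69 and not called with slide as a fixed block). *Lama1*, a laminin chain of embryonic basement membranes, fell 5.54-fold. The count of rises was 5 without P0 replicate 1 and with scaling to the 75th percentile.

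Antigen presentation genes were higher at 3 W. Of 17, 13 were called higher and 0 lower by limma, also at an unadjusted p, with a median of 1.75, and 11 were called higher with slide as a fixed block. Of the 14 above background on all 6 arrays, 10 were called higher. *H2-DMb1*, a chain of the chaperone that loads peptide onto MHC class II, read 9.47, 8.26 and 8.5 at P0 and 15.23, 15.16 and 15.24 at 3 W, an 88.5-fold rise (limma adjusted p = 2e-05). The class II invariant chain *Cd74* rose 9.41-fold, from 7.38, 6.97 and 7.05 to 10.44, 10.41 and 10.25. *H2-Aa*, a class II chain, read 4.8, 2.53 and 4.11, with 1 of 3 arrays above background, and then 8.22, 7.9 and 8.17. The class I gene *H2-K1* rose by 1.75.

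Macrophage markers rose on the same arrays, with 11 of 14 called higher and 1 lower, a median of 1.72 (9 higher and 0 lower with slide as a fixed block), and a summed signal of 26014 to 28863 at P0 and 65464 to 77167 at 3 W. *Csf1r*, the receptor that macrophages need to survive, read 12.99, 13.0 and 12.89 and then 14.5, 14.67 and 14.85. *Cd163*, a scavenger receptor of resident macrophages, rose 7.41-fold and *Adgre1*, a surface antigen of mature macrophages, 4.73-fold. The probes of *Ptprc*, the pan-leukocyte antigen, disagreed: of 4 tested, 3 were called higher, and the brightest, by which the gene was read, was lower at -1.1, or 0.42 with slide as a fixed block. Of 19 tested interferon-stimulated genes 10 were called higher, with a median of 1.15. Of the 18 above background on all 6 arrays, 9 were called higher. With slide as a fixed block only 1 of the 19 was called. *Ifit1*, an antiviral RNA-binding protein, was then 0.62 in place of 2.08 (limma adjusted p = 0.689), with 2 of the 3 P0 arrays above background.

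Of 7 mast cell markers tested 4 were called lower, with a median of -1.23. Of the 4 above background on all 6 arrays 2 were called, and the other calls came through the P0 arrays. *Mcpt4*, a mast cell protease, read 8.56, 8.59 and 7.61 and then 4.36, 5.13 and 4.5, with 1 of 3 arrays of 3 W above background. *Cpa3*, a mast cell carboxypeptidase, was at least 5.49-fold lower. Mcpt4 was -1.80 with slide as a fixed block (limma adjusted p = 0.115).

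In the Schwann cell marker list 5 of 10 were called higher, with a median of 0.84, and 4 with slide as a fixed block. *S100b*, a calcium-binding protein of Schwann cells, rose from 14.67, 14.45 and 14.78 to 17.34, 17.14 and 17.31. *Sox10*, the transcription factor of the lineage, differed by 0.65 and was not called. Of the 8 oligodendrocyte markers tested 3 were called higher, with a median of 0.18, and 5 with slide as a fixed block. None of the 5 above background on all 6 arrays was among the 3, which passed the filter through 3 W, where they were high. *Mobp*, an oligodendrocyte myelin protein, read 7.48, 3.79 and 4.36 at P0, with 1 of 3 arrays above background, and 11.72, 11.57 and 11.56 at 3 W, and the protease *Klk6* was at least 5.94-fold higher. *Mog*, the oligodendrocyte surface antigen, read 7.96, 7.89 and 7.9 and then 8.37, 8.1 and 8.23, a difference of 0.32 that was 1.37 with slide as a fixed block. The 10 astrocyte markers held 2 rises and 3 falls, against 17.0% and 14.7% of all tested genes, with a median of -0.32. *Hepacam* rose by 2.8 and *Fgfr3* fell by 1.42. The slide-blocked fit called 1 astrocyte marker lower, and there Fgfr3 was -0.48 (limma adjusted p = 0.448).

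The muscle list held large changes in both directions. Of 12 skeletal muscle markers 6 were called lower and 2 higher, with a median of -1.81, and 1 was called lower with slide as a fixed block. Of the 10 above background on all 6 arrays, 5 were called lower and 1 higher. *Myh3*, embryonic myosin heavy chain, read 10.99, 14.05 and 12.01 at P0, was below background at 3 W and was at least 177-fold lower. *Myh4*, an adult fast myosin heavy chain, read 7.01, 5.17 and 5.5 and then 13.59, 12.15 and 11.27, a rise of 6.44 with 2 of the 3 P0 arrays above background, or 9.11 with slide as a fixed block. Other myosin genes of the list, *Myh1*, *Myh2* and *Myh8*, differed by -0.80, -0.45 and -1.75. They were not called (limma adjusted p = 0.528, 0.728 and 0.0906). The Myh3 bound was 98.5-fold without P0 replicate 2, and 284-fold without P0 replicate 1. The highest Myh3 value was on P0 replicate 2, the array with the largest muscle sum.

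Over all tested genes 17.0% were called higher and 14.7% lower. Against these shares the counts of the small marker lists that follow are not read as results about their cell types. The 12 endothelium and pericyte markers held 1 rise, *Flt1* at 1.54, with a median of 0.34. The 9 fibroblast markers tested held 2 rises, *Ly6a* and *Dcn*, with a median of 0.3, and the 9 of leptomeninges and perineurium held 2, Itgb4 and the keratin *Krt19*, with a median of -0.32. Krt19 lost its call without P0 replicate 1 or 3 and without 3 W replicate 2 or 3 (0.79 to 0.96), and was 1.21 with slide as a fixed block (limma adjusted p = 0.126), a fit in which 1 marker of that list was called higher and 2 lower. With scaling to the 75th percentile 4 endothelium and 4 fibroblast markers were called higher, and 2 endothelium markers were without P0 replicate 2 or 3 W replicate 3. The 8 adipocyte markers held 2 rises and 1 fall, with a median of -0.09, and the 5 melanocyte markers 2 falls, with a median of -0.3. The adipocyte rises were 1 without P0 replicate 2 or without 3 W replicate 1 or 2, and the falls 2 without P0 replicate 2 or 3, while 0 were called in either direction with slide as a fixed block. *Dct*, a melanin enzyme, was -2.18 and turned to 2.19 with slide as a fixed block, where 1 melanocyte marker was called higher and 1 lower.

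Of 8 tested erythroid markers 3 were called higher, with a median of 0.76, but 0 were without P0 replicate 2, without P0 replicate 3 or without 3 W replicate 2, 1 was without 3 W replicate 3, and 0 were with slide as a fixed block. Of the 6 erythroid markers above background on all 6 arrays, 2 were called higher. *Hba-a1*, alpha globin, read 18.51, 18.66 and 18.58 and then 18.48, 18.43 and 18.48. Nuclear genes of oxidative phosphorylation gave 0 calls of 25 by limma in either direction, also at an unadjusted p, with a median of -0.27. *Ndufa1*, a complex I subunit, differed by -0.22 ± 0.09.

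The 10 largest rises among genes with a symbol and above background on all 6 arrays were led by *Cntf*, ciliary neurotrophic factor, a survival factor for motor neurons that myelinating Schwann cells hold. It read 11.08, 9.99 and 10.6 at P0 and 16.88, 17.05 and 17.27 at 3 W (probe at chr19:12838236-12838295, mm9), a difference of 6.51 ± 0.28, or 91.2-fold (limma adjusted p = 1.57e-05). H2-DMb1 came next. *Fam178b* followed at 64.8-fold, *Lctl*, a klotho-related glycosidase-like protein, at 43.8-fold, *Plk5*, a polo-like kinase family member, at 39.3-fold and *Prr15* at 38-fold. *Ccdc37*, *Slamf9* (a SLAM family receptor), *Paqr5* (a membrane progestin receptor) and *St8sia5*, a sialyltransferase that builds gangliosides, rose between 27.3-fold and 33.2-fold. Genes whose ages overlapped were left out before this ranking and that of the falls, so the lack of overlap is no result.

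The 10 largest falls among the same kind of genes, those with a symbol, were led by Crmp1, *Tceal7* and Isl2, at 48.9-fold, 48.5-fold and 46.0-fold. Crmp1, Tceal7 and Isl2 with slide as a fixed block were -4.33, -3.36 and -4.31. Scn10a, *Vstm2l*, *Arrdc4*, Gap43, *Myoz2*, *Ednrb* and *Postn* followed, between 35.1-fold and 25.0-fold. Myoz2 is a protein of the muscle sarcomere, and its highest P0 value, 11.59, was again on P0 replicate 2 (10.82 and 10.71 on the others). Ednrb, the endothelin receptor of neural crest derivatives, read 12.94, 13.19 and 13.55 and then 8.68, 8.42 and 8.63. Postn, the matricellular protein periostin, read 14.2, 14.37 and 14.31 and then 9.77, 9.61 and 9.56, with the smallest spread of these 10 (SE 0.10, limma adjusted p = 6.11e-06).

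Some genes appeared or vanished against background. They passed the filter only through the age where they were high, so their calls give no support of their own. *Fgf4*, a fibroblast growth factor, was below background on all P0 arrays, read 12.3, 12.19 and 12.42 at 3 W and was at least 149-fold higher. *Them5*, a mitochondrial thioesterase, was at least 66.5-fold higher, *Cyp4f14*, a cytochrome P450, 48.9-fold, *Sptbn5*, a spectrin, 36.7-fold and *Pla2g5*, a secreted phospholipase, 31.9-fold. Below background at 3 W were *Afp*, alpha-fetoprotein, *Rps6kl1*, *Trim67* and *Atp1b4*, at least 30.1-fold, 28.6-fold, 27.5-fold and 26.9-fold lower. Afp varied widely at P0, with 9.35, 12.91 and 7.1, again highest on P0 replicate 2, and so was Atp1b4, with 8.59, 11.28 and 9.01. Without that array the bounds were 10.2-fold for Afp and 15.2-fold for Atp1b4, and without P0 replicate 3 the Afp bound was 76.4-fold.

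**Figure D3:**
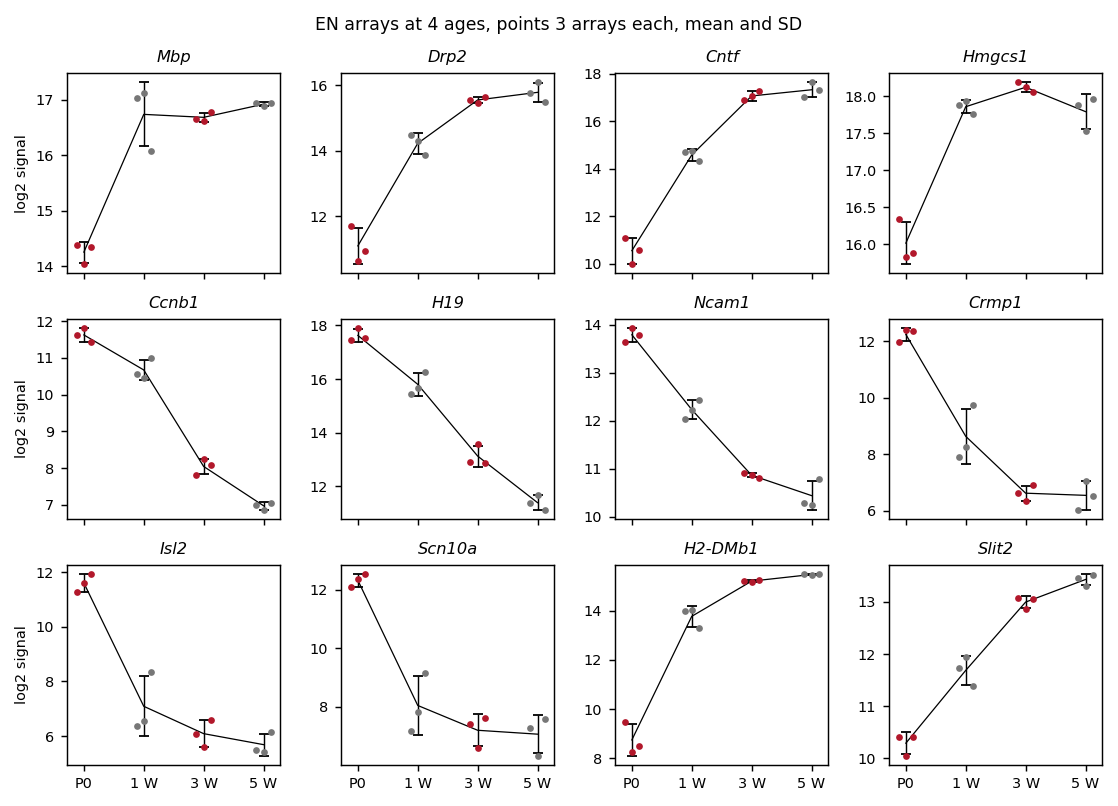
Log2 signal of 12 genes on the EN arrays at each of the 4 ages, 3 arrays each, with mean and SD, the P0 and 3 W arrays in red and the others in grey. Mbp and Scn10a had moved most of the way by 1 W, while Ccnb1 was still above 10 at 1 W and near 8 at 3 W, and the spread of Scn10a, Isl2 and Crmp1 was widest at 1 W.

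The change with age was compared with that of the dorsal root, where 3 AN arrays of each age were read the same way. The difference of the changes, AN minus EN, passed an adjusted p of 0.05 with a size over 1 for 86 genes in the positive direction (0.482% of 17859) and 45 in the negative direction (0.252%), that is 207 probes. Of these 131 genes, 102 were also called between the ages in EN. The count of probes fell to between 59 and 116 when any 1 EN array was left out and rose to 322 without AN 3 W replicate 3, an array with a quality weight of 0.18 and left out after seeing the data.

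Slit2 rose in EN but little in AN. It read 11.52, 11.51 and 11.75 in AN at P0 and 12.19, 12.13 and 11.79 at 3 W, an AN difference of 0.45 against 2.71 in EN, with an interaction of -2.26 ± 0.21 (limma adjusted p = 0.0031). Plk5 rose in both roots, by 5.3 in EN and 2.67 in AN (interaction -2.63, limma adjusted p = 0.0031). *Fgl2*, a fibrinogen-like immune regulator, rose by 3.89 in EN and 1.24 in AN, and *Lect1*, the angiogenesis inhibitor chondromodulin, by 3.44 and 0.98. *Vwa5b2* rose by 1.46 in EN and was -1.12 in AN, with the ages apart in both roots, though its 2 tested probes were called in opposite directions in EN.

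In the other direction stood genes that fell more in EN than in AN, or that fell in EN and were higher at 3 W in AN. *Sytl3*, a synaptotagmin-like protein of vesicle traffic, read 9.24, 9.87 and 9.51 in EN at P0 and 7.28, 6.0 and 5.86 at 3 W, and 10.88, 11.24 and 10.88 and then 10.93, 11.21 and 11.39 in AN. Its interaction was 3.33 ± 0.47 (limma adjusted p = 0.0145). *Hpcal4*, a neuronal calcium sensor, was -1.0 in EN and 1.93 in AN, and *Camkv*, a brain-enriched kinase-like protein, -3.56 and -0.58. *Cmtm2b* was -1.08 and 1.95, and *Ecel1*, a peptidase of peripheral neurons, -3.95 and -1.07. The interaction of Ecel1 was no longer past the threshold without any 1 of P0 replicates 1 to 3 or 3 W replicates 1 and 2 of EN (2.58 to 3.03), and that of Lect1 without P0 replicate 1 or 2 or 3 W replicate 1 or 3 (-2.52 to -2.25). Sytl3 and Fgl2 lost theirs without P0 replicate 2 (3.17 and -2.57), and Cmtm2b without P0 replicate 2 or 3 W replicate 1 (3.06 and 2.98).

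**Figure D4:**
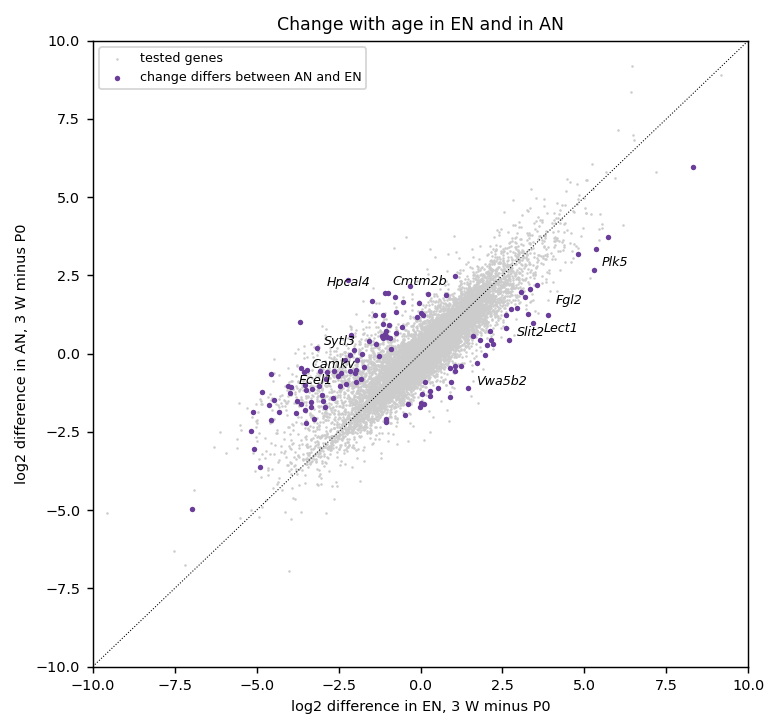
Log2 difference between 3 W and P0 in AN against that in EN for each tested gene (grey), with the 131 genes whose change differed between the roots in purple and the 10 named genes labelled. The line marks equal change: Slit2, Plk5, Fgl2, Lect1 and Vwa5b2 lie below it and Sytl3, Hpcal4, Camkv, Cmtm2b and Ecel1 above it.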

How the data were processed

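RNA of ventral (EN) and dorsal (AN) root fibres was measured on 1-colour mouse Agilent 60-mer arrays. The authors scanned them with Agilent Feature Extraction 10.7.1.1, quantile-normalized the signals and deposited the log2 values used here. The deposited scanner files gave the raw and processed intensity of each spot, its background flags, slide and gene name. Those intensity values served for the filter and the alternatives. Each matrix column was matched to its own scanner file (r 0.9955 to 0.9999).

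Gene probes well above background on all 3 arrays of either age were fitted with limma 3.58.1 (R 4.3.3; lmFit, eBayes) on the 6 EN arrays, 4 residual degrees of freedom. Interactions used the 12 EN and AN arrays of P0 and 3 W, taken as independent. Calls needed a Benjamini-Hochberg adjusted p below 0.05 over all tested probes and a change over 2-fold. A gene was read from its brightest probe by mean over the arrays. Of the genes with several tested probes, 136 had probes called both ways. Of 5672 called genes, 947 had no symbol and are not named. With 3 against 3, exact permutation p cannot go below 0.1, so none is given. The number of arrays limits the precision.

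Named were the 10 largest rises and falls above background on all 6 arrays without overlap, the 5 largest bounds in each direction, 12 genes taken from the study's text, the 5 largest interactions in each direction, and the first and the 2 most changed members of each list per direction. Some genes that this rule names are not reported here. Other names were chosen after their values were seen. Members and lists were chosen with earlier results of these data known.

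Alternatives were other scalings, background correction, filters, blocks for slide and replicate number, array weights, and leaving out each array. The scripts were tested on simulated data. Promoters are from RefSeq. Figures were drawn with matplotlib 3.10.9 in Python 3.11.15.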

Additional observations from a re-analysis of the deposited data

Results flagged for a closer look

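The interaction test of AN minus EN change between P0 and 3 W passed its threshold for 207 probes, and 24 genes in the lists or named were among those that differed, 16 with a larger value in AN and 8 with a smaller one. Each is given as the AN difference minus the EN difference on the log2 scale, all with a limma adjusted p below 0.05. The negative values were -2.65 for *Fgl2*, -2.63 for *Plk5*, -2.57 for *Vwa5b2*, -2.46 for *Lect1*, -2.36 for *Them5*, -2.26 for *Slit2*, -1.72 for the basal lamina chain *Col4a6* and -1.62 for *Slit3*. Among Schwann cell genes the values were 1.03 for *Erbb3*, 1.16 for *Id2*, 1.24 for *Ncam1* and 2.04 for *Pax3*. The astrocyte marker *Slc1a2* gave 1.27 and the guidance gene *Sema3f* 1.41. Neuronal genes gave 2.01 for *Dcx*, 2.06 for *Lrrtm1*, 2.11 for *Gabrb1*, 2.7 for *Npy* and 2.74 for *Gabrg3*. The 5 largest were 2.88 for *Ecel1*, 2.94 for *Hpcal4*, 2.98 for *Camkv*, 3.03 for *Cmtm2b* and 3.33 for *Sytl3*. Them5 was above background on 6 of the 12 arrays, Dcx on 8, Npy and Gabrg3 on 9 and Gabrb1 on 10, so their sizes depend on signals near background, and the others were above it on all 12.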

How the results depend on the processing

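Across the alternatives, 2204 of the values of named genes kept their direction and side of the threshold, 63 were weaker, 6 stronger and 10 reversed, and 95 of 136 named genes changed under none. The reversals were *Hba-a1* at 0.31 with scaling to the 75th percentile, *Ptgds* at 0.06 without EN P0 replicate 2 and 0.08 without EN 3 W replicate 1 (-0.16 to 0.08 over the arrays left out), and, with slide as a fixed block, *Adipoq* 0.20, *Col1a1* 0.11, *Dct* 2.19, *Lin28a* 0.30, *Pecam1* -0.32, Ptgds 0.33 and *Ptprc* 0.42. The slide block kept 91 of 120 called named genes called and 118 in direction. Probe counts were 3339 higher and 3461 lower with normexp background correction, and 3741 higher among probes above background on every array. Interaction probes numbered 101 with no filter, 419 with the slide block, 399 with array weights, 1365 at an unadjusted p, and 59 to 322 with 1 array left out, the 322 being without AN 3 W replicate 3, which was chosen after seeing the data. Leaving out 1 EN array gave 2860 to 3162 genes higher and 2554 to 2653 lower. Replicate numbers showed little pairing of the EN arrays of P0 with those of 3 W (correlations of deviations -0.018, 0.108 and 0.158). With a replicate block 3052 genes were higher and 2635 lower (5859 and 5240 probes) and 160 interaction probes passed. The paper took both roots from the animals of each age, so AN and EN arrays of the same age may share animals. Pairing of AN with EN within an age was not tested, and the interaction fit took these arrays as independent. The median over probes stayed between -0.003 and 0.06. Genes below background at an age have only a bound.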
